A study of Mus musculus with 5 samples.

Results

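Glutamate and GABA receptor genes were followed in mouse striatum after a small stroke. They were the genes whose name in the deposited table was that of an AMPA (Gria), kainate (Grik), NMDA (Grin), delta (Grid) or metabotropic (Grm) glutamate receptor subunit, or of a GABA-A (Gabr) or GABA-B (Gabbr) receptor subunit. The pattern matched 39 of 19221 genes, 24 for glutamate and 15 for GABA receptors. Of these, 27 reached at least 1 RPKM (reads scaled to exon length and to the library's total) in at least 1 library and were analysed, among 12783 such genes in all. They were 17 glutamate and 10 GABA receptor genes.

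The 5 libraries came from male C57BL/6 mice aged 9 weeks. Rose bengal, a dye that forms clots where it is lit, was injected into the abdomen at 100 mg/kg, and a fibre placed 3 mm below the dura lit the caudate putamen at 532 nm and 30 mW for 2 min. In the stroke groups the lit tissue was punched out 4 hours, 1 day, 3 days or 10 days later, and punches of 6 animals were pooled into 1 library per time. The sham library pooled punches of the left, opposite side, which was lit through a fibre before the dye was given. Every animal therefore received the dye, and the sham tissue came from mice with a stroke on the other side. For this side the labels give no number of animals and no time after stroke. With 1 library per group there was no replicate, so no test between groups, SD or SE was possible, and differences are described by their size. Intervals of ratios are exact binomial intervals at 95% on recovered reads, those of shares use the delta method, and both cover counting error only.

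Glutamate is the main excitatory transmitter of the brain, and GABA the main inhibitory one. Ionotropic receptors are channels built from several subunits and open within milliseconds, whereas metabotropic glutamate receptors and GABA-B receptors act through G proteins. In the striatum most neurons are themselves GABA-releasing projection neurons that receive glutamate from cortex and thalamus. In ischaemia, glutamate builds up outside the cells, and calcium entering through NMDA receptors is a known route of injury.

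Promoters of 4 members are shown because these genes had the 3 lowest log2 folds at day 1 (Grm3, Grin2c and Grik5) or code for the subunit that every NMDA receptor contains (Grin1). Each runs from 250 bases before to 50 after the start given in RefSeq on GRCm38.p6, is read 5′ to 3′ along the gene, which lies on the minus strand in all 4 cases, and has the motifs searched in capitals. The capitals mark the GC box GGGCGG and the TGACG core of the cAMP response element, on either strand.
Grik5, chr7:25072320-25072619: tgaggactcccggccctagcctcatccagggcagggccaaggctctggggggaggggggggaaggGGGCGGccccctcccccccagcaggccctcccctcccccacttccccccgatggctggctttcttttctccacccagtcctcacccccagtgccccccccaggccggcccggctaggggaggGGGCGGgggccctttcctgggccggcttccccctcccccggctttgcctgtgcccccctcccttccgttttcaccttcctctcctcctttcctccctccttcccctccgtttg
Grin1, chr2:25319138-25319437: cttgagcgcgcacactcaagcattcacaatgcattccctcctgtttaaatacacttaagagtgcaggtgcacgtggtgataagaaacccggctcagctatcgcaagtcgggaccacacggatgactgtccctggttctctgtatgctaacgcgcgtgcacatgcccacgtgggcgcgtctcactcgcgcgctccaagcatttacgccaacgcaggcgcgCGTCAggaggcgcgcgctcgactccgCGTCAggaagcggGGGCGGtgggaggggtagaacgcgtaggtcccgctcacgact
Grin2c, chr11:115267194-115267493: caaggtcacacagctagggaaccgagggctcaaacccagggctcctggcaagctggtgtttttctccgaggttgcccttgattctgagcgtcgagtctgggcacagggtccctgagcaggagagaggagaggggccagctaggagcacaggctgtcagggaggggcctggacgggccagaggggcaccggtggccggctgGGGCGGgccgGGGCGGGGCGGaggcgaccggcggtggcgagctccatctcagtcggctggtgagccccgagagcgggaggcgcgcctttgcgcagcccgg
Grm3, chr5:9725303-9725602: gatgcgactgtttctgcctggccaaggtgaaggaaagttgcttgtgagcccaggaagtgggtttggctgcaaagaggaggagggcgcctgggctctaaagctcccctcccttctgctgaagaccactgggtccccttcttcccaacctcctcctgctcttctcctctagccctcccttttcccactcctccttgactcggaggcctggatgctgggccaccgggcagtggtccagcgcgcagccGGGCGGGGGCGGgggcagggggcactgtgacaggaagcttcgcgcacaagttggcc
The Grik5 window held 2 GC boxes, the Grin2c window 3, of which 2 overlap, the Grm3 window 2 and the Grin1 window 1. Grin1 also had 2 copies of TGACG, both on the opposite strand and so printed as CGTCA. RefSeq had 31 promoters for 24 of the 39 genes. GGGCGG was found in 16 of these 31, against 35.7% of all 32851 promoters of that length, and TGACG in 4 of 31, against 20.8%. The full element TGACGTCA was in 0 of the 31 (1.79% of all promoters), and the EGR1 motif GCGTGGGCG also in 0 of the 31 (0.612%). TATAAA was found in 3 (13.6%). The promoters of these receptor genes had a median GC content of 61.0% and 13 CpG sites, against 52.7% and 7 over all promoters. A match is a description of the letters only.

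The libraries held 42261778 to 48013861 reads. The scale of the 4-hour library stood apart. Over all 12783 genes the median log2 fold against sham was 0.28, -0.02, 0.12 and 0.07 at 4 hours, day 1, day 3 and day 10, and median-of-ratios scaling moved these libraries by 0.41, -0.05, 0.16 and 0.14. At 4 hours the genes at least 1.5-fold higher and those as much lower than sham numbered 2360 and 388 as deposited and 405 and 928 after that scaling, and at day 3 they were 2833 and 672, against 2145 and 1084 scaled. Markers of striatal projection neurons were abundant in the sham library (Ppp1r1b 1019 RPKM, Drd2 73.8 RPKM), but so was Slc17a7 (59.1 RPKM), a marker of cortical excitatory neurons. All 10 neuron, all 12 striatal projection neuron, 8 of 10 cortical excitatory and all 9 astrocyte markers were analysed. Ttr, a marker of choroid plexus, stood at 729 RPKM at 4 hours, against 77.4 RPKM in sham. The summed ependymal and choroid plexus list ranged between 7.29 RPKM at day 10 and 744 RPKM at 4 hours, against 82.4 RPKM in sham. Ttr made up most of this sum at 4 hours and in sham. Foxj1 of the same list went the other way, with 6.18 and 6.47 RPKM at day 3 and day 10, against 3.23 RPKM in sham. The other 4 of its 5 genes analysed were below sham at these 2 times. The summed microglia and macrophage list ranged between 51.2 RPKM at 4 hours and 453 RPKM at day 10, against 58.4 RPKM in sham. None of the markers of any list in the table was at 0 in any library. The part of these other cells in the receptor levels was not tested. In bulk tissue, fewer cells of a type and less RNA per cell cannot be told apart.

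Receptor transcripts were lower than sham at day 1 and day 3 and nearer to it at day 10. Their summed level was 293, 143, 155 and 193 RPKM at 4 hours, day 1, day 3 and day 10, against 231 RPKM in sham. The day 1 and day 3 sums were thus the lowest and lay near each other. The median log2 fold against sham over the 27 genes was 0.21, -0.43, -0.39 and -0.12 at the 4 times in order, beside 0.28, -0.02, 0.12 and 0.07 over all genes. Of the 27 genes, 17 had their lowest level of all 5 libraries at day 1 and 8 at day 3, a count that was not made over all genes. Below sham as deposited were 85.2% of the 27 genes at day 1 (52.3% of all genes) and 96.3% at day 3 (41.0%). The 4 comparisons share the sham library and are not independent of one another.

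**Figure D1:**
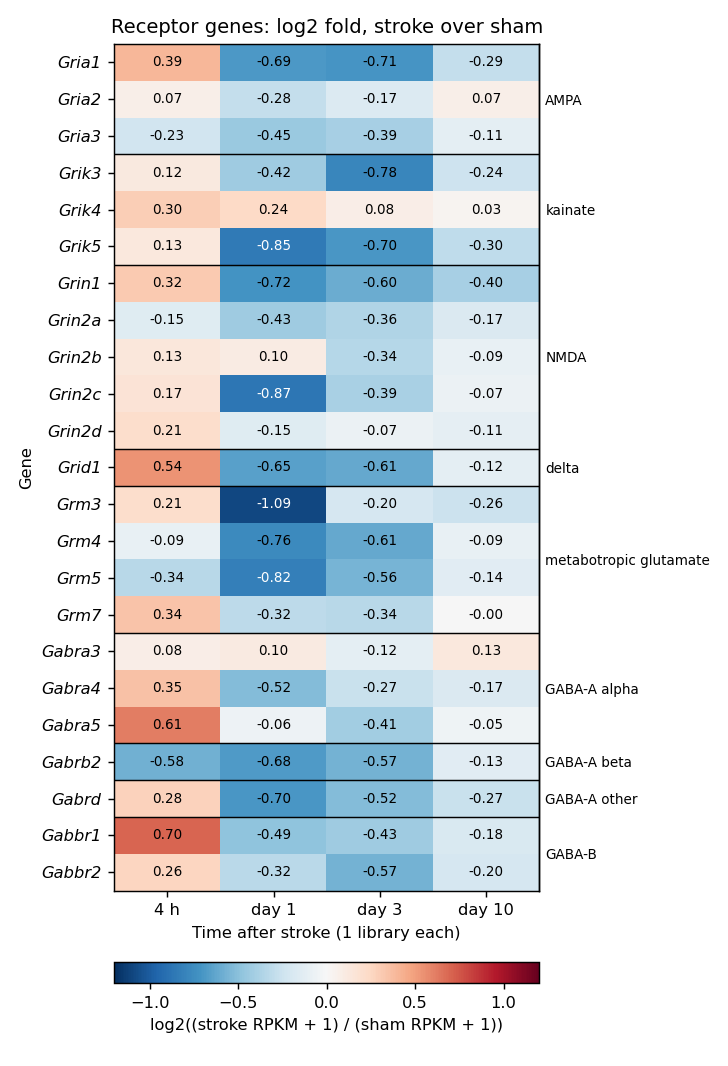
Log2((stroke RPKM + 1)/(sham RPKM + 1)) of 23 of the 27 receptor genes analysed (rows, grouped by receptor class) at 4 hours, day 1, day 3 and day 10 (columns). Most cells are above 0 at 4 hours, where median-of-ratios scaling turns the median to -0.11, and below 0 at day 1 and day 3, with Grm3 at day 1 (-1.09) the lowest value shown.

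At 4 hours 21 of 27 receptor genes stood above sham as deposited (77.8%), about the same share as over all genes (78.1%). After median-of-ratios scaling 18 of 27 stood below sham and the median was -0.11, beside -0.01 over all genes. How many of all genes stood below sham after that scaling was not counted, so the 18 has no background share. At least 1.5-fold higher were 2 of 27 genes (7.41%, against 18.5% of all genes), Gabbr1 and Gabra5, and 0 of 27 were as much lower (3.04% of all genes). Among the 9 genes that stayed above sham after the scaling were Gabra5, Gabbr1, Grid1, Grm7, Grik4, Gabra4 and Gria1. Neither Gabbr1 nor Gabra5 kept the 1.5-fold size, with scaled log2 folds of 0.30 and 0.34. In 4 genes, Gabrb2, Grm5, Gria3 and Grin2a, the 4-hour level was below sham both as deposited and scaled, and the counting interval of the deposited RPKM ratio lay below 1. The neuron marker list had a median log2 fold of 0.49 at that time, and 4 of the 27 receptor genes lay above it. In the authors' deposited table, the GFOLD value (a log2 fold shrunk where reads are few) at 4 hours was above 0 for 19 of the 27 genes (62.5% of all genes) and below 0 for the same 4 (10.8%).

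At day 1, 10 of 27 receptor genes were at least 1.5-fold lower than sham, which is 37.0%, against 8.48% of all genes, and 0 of 27 were as much higher (11.1% of all genes). These 10 were Grm3, Grin2c, Grik5, Grm5, Grm4, Grin1, Gabrd, Gria1, Gabrb2 and Grid1, 8 of 17 glutamate and 2 of 10 GABA receptor genes. By the log2 fold, which has a pseudocount of 1 RPKM, Grm3 was the only one of the 27 at least 2-fold lower (1.35% of all genes). As plain RPKM ratios, without the pseudocount, Gabrb2 (0.309), Grm3 (0.348), Grm5 (0.381) and Grin2c (0.489) were all more than 2-fold lower. In the authors' deposited table, 21 of the 27 genes had a GFOLD value below 0 at day 1 (36% of all genes) and 2, Grik4 and Grin2b, one above 0 (32%). The neuron marker list had a median log2 fold of -0.33 at day 1 and the striatal projection neuron list one of -1.0, beside -0.43 for the receptor genes. Set against the neuron marker median, 11 of the 27 genes lay above it and 16 below. Longer genes were lower at day 1 in general: over 10089 protein coding genes Spearman's rho between exon length and log2 fold was -0.41, and the receptor genes had a median exon length of 6360 bases, against 3920. Protein coding genes of the same lengths had a median of -0.13, and relative to them the median of the receptor genes was -0.22 and 6 of 27 were at least 1.5-fold lower, against 5.81% of the protein coding genes.

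At day 3, 6 of 27 genes were at least 1.5-fold lower than sham (22.2%, against 5.26% of all genes), and 0 of 27 were as much higher (22.2% of all genes). They were Grik3, Gria1, Grik5, Grid1, Grm4 and Grin1, all for glutamate, and 5 of them, all but Grik3, were also among the 10 of day 1. With median-of-ratios scaling the number was 10, while the share of all genes was 8.48%. In the authors' deposited table, 23 of the 27 genes had a GFOLD value below 0 at day 3 (27% of all genes) and 0 of 27 above 0 (44.9%). The neuron marker list had a median log2 fold of -0.42 at that time. At day 10, 0 of 27 genes were at least 1.5-fold higher (10.5% of all genes) or lower (0.759%), but 22 of 27 (81.5%) were below sham by less than that, against 39.0% of all genes. In the authors' deposited table, 14 of the 27 genes had a GFOLD value below 0 at day 10 (16.5% of all genes) and 0 of 27 above 0 (36.4%). Grin1, Grik5, Gria1 and Gabrd had the lowest log2 folds at day 10, -0.40, -0.30, -0.29 and -0.27.

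**Figure D2:**
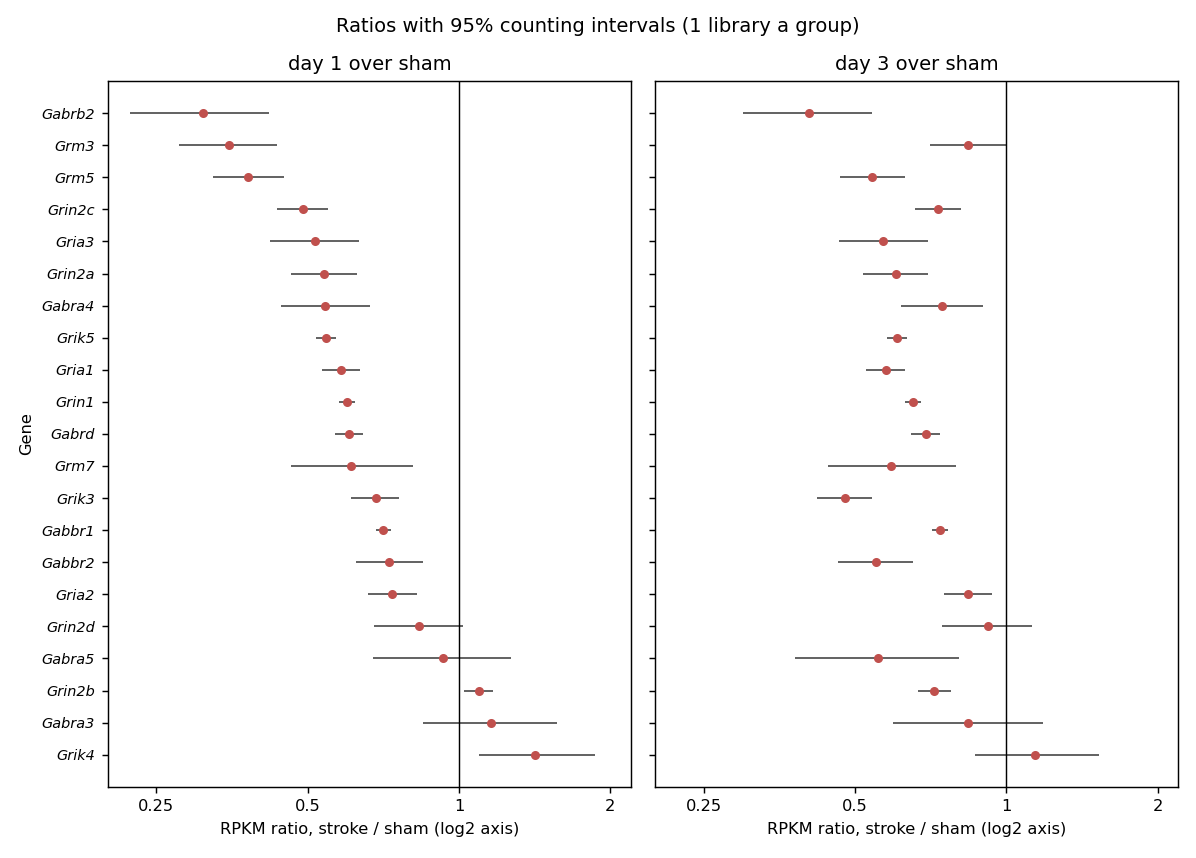
RPKM ratio of stroke over sham (log axis) with its 95% counting interval, for 21 of the 25 receptor genes whose reads were whole, at day 1 and day 3. Over all 25, at day 1 the interval lay below 1 for 18 genes and above 1 for Grin2b and Grik4, and at day 3 it lay below 1 for 20 genes and above 1 for 0. Intervals were made for receptor genes only, so the same counts over all genes are not given.

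AMPA receptors, which carry most fast excitation, are built from GRIA1 to GRIA4. Gria1 had 13.9, 5.99, 5.93 and 8.27 RPKM at 4 hours, day 1, day 3 and day 10, against 10.3 RPKM in sham. It was above sham at 4 hours, lower at the 3 later times, and nearly equal at day 1 and day 3, with log2 folds of -0.69 and -0.71. Its RPKM ratio to sham was 0.581 at day 1 (interval 0.533 to 0.634) and 0.575 at day 3 (interval 0.526 to 0.629). Gria2, whose edited subunit makes the channel nearly impermeable to calcium, had 2.21, 1.51, 1.72 and 2.21 RPKM at the 4 times, against 2.05 RPKM in sham. It was lower at day 1 and day 3 by less than Gria1 (log2 folds -0.28 and -0.17). As deposited it was slightly above sham at 4 hours and day 10, but after median-of-ratios scaling these log2 folds turned to -0.19 and -0.02. Gria3 had 0.909, 0.644, 0.708 and 1.07 RPKM at the 4 times, against 1.24 RPKM in sham, and thus stood below sham at all 4 times, most at day 1 (log2 fold -0.45). Per length, Gria1 was the most abundant AMPA subunit in all 5 libraries.

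Kainate receptors combine low-affinity subunits (Grik1, Grik2 and Grik3) with the high-affinity subunits Grik4 and Grik5, which do not form channels alone. Grik5 was among the most abundant members, with 46.8, 23.2, 25.9 and 34.4 RPKM at 4 hours, day 1, day 3 and day 10, against 42.6 RPKM in sham. It was close to sham at 4 hours and well below it at day 1 and day 3, with log2 folds of -0.85 and -0.70, and a ratio of 0.544 (interval 0.519 to 0.570) at day 1. Grik3 had 4.43, 2.73, 1.91 and 3.22 RPKM at the 4 times, against 4.00 RPKM in sham. Its lowest level came at day 3, not day 1, with a ratio of 0.478 (interval 0.421 to 0.541) and the lowest log2 fold of the 27 at that time, -0.78. Grik4 went the other way. It had 1.14, 1.04, 0.837 and 0.772 RPKM at the 4 times, against 0.736 RPKM in sham, so that sham was the lowest of its 5 libraries as deposited, and at day 1 its ratio was 1.42 (interval 1.09 to 1.86). The levels of Grik4 lie near the 1 RPKM floor, and its log2 fold of 0.24 at day 1 was under the 1.5-fold size.

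NMDA receptors pair the obligatory subunit of Grin1 with GRIN2 subunits, which set channel kinetics and magnesium block. Grin1 (chromosome 2, 25291181 to 25319187, minus strand, GRCm38) had 47.7, 22.8, 24.8 and 28.6 RPKM at 4 hours, day 1, day 3 and day 10, against 38.1 RPKM in sham. Day 1 and day 3 were its lowest libraries, and it was also the member farthest below sham at day 10. Its ratios were 0.598 (interval 0.578 to 0.620) at day 1, 0.652 (interval 0.630 to 0.675) at day 3 and 0.750 (interval 0.726 to 0.775) at day 10. Its exons share 1307 bases with the antisense gene Grin1os, and whether strand was used in counting is not stated, so reads of the pair cannot be told apart. The same holds for shorter overlaps of Grin2d, Gabra5, Grm7 and Grin2b with genes on the opposite strand.

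The GRIN2 subunits moved unequally. Grin2c, best known from cerebellar granule cells and astrocytes, had 8.78, 3.78, 5.65 and 7.33 RPKM at the 4 times, against 7.72 RPKM in sham. It was lower at day 1 (ratio 0.489, interval 0.434 to 0.548) than at the other times, and back near sham at day 10. Grin2b, which binds CaMKII and is the main GRIN2 gene of the young forebrain, had 3.40, 3.29, 2.16 and 2.76 RPKM at the 4 times, against 3.01 RPKM in sham. It was the other way round, slightly above sham at day 1 (ratio 1.10, interval 1.03 to 1.17) and below it at day 3 (ratio 0.719, interval 0.666 to 0.776). Grin2a, the GRIN2 subunit that increases as forebrain matures, had 1.03, 0.672, 0.749 and 0.992 RPKM at the 4 times, against 1.24 RPKM in sham, and was below sham at all 4. Grin2d had 1.77, 1.16, 1.28 and 1.23 RPKM, against 1.40 RPKM in sham, and its counting intervals held 1 at day 1, day 3 and day 10. Grid1, a delta receptor that binds cerebellins at synapses, had 4.42, 1.37, 1.44 and 2.43 RPKM at the 4 times, against 2.72 RPKM in sham. It was among the higher members at 4 hours (log2 fold 0.54) and was among the lower ones at day 1 and day 3 (-0.65 and -0.61), with no counting interval because its values did not come out as whole reads.

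**Figure D3:**
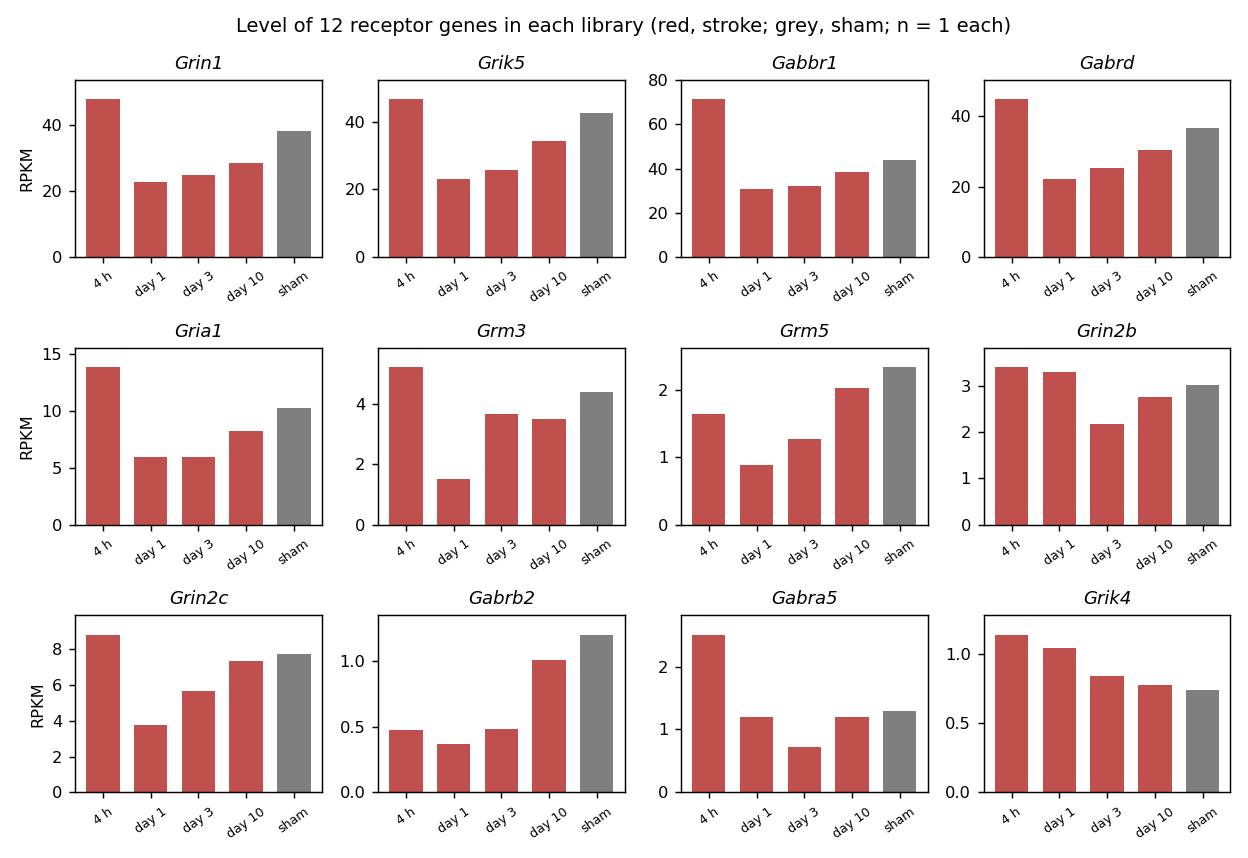
RPKM (each panel its own axis, starting at 0) of 12 receptor genes at 4 hours, day 1, day 3, day 10 and in sham, 1 library per bar. Grin1, Grik5, Gabbr1, Gabrd and Gria1 share a low at day 1 and day 3, Grm3 and Grin2c have theirs at day 1, Grin2b at day 3, and Gabrb2 is low at 4 hours as well.

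Of the metabotropic receptors, those of group I, such as Grm5, couple to phospholipase C, while those of groups II (Grm2 and Grm3) and III (such as Grm4, Grm7 and Grm8) lower cAMP. Grm5, abundant in striatal projection neurons, had 1.64, 0.889, 1.26 and 2.02 RPKM at 4 hours, day 1, day 3 and day 10, against 2.33 RPKM in sham. It was below sham at all 4 times, already at 4 hours (ratio 0.704, interval 0.615 to 0.802) and most at day 1 (ratio 0.381, interval 0.323 to 0.448).

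Grm3, which is found on neurons and astrocytes, had 5.23, 1.53, 3.69 and 3.50 RPKM at the 4 times, against 4.39 RPKM in sham. The day 1 library stood alone, with a ratio of 0.348 (interval 0.277 to 0.435), a log2 fold of -1.09, and -0.20 at day 3. Between day 1 and day 3 it was the only one of the 27 genes at least 1.5-fold higher in the later library (17.2% of all genes were). The astrocyte marker list had a median log2 fold of -0.32 at day 1 and -0.33 at day 3, and its summed level was 494 and 707 RPKM, against 350 RPKM in sham. Gfap alone held 272 and 509 RPKM of these sums, against 102 RPKM in sham, while 7 and 6 of the 9 markers were below sham. Grm4, a presynaptic receptor of striatal output neurons, had 7.39, 4.27, 4.85 and 7.38 RPKM at the 4 times, against 7.94 RPKM in sham. It was lower at day 1 and day 3 (log2 folds -0.76 and -0.61) and near sham at day 10. Grm7, the presynaptic group III receptor of low glutamate affinity, had 1.56, 0.627, 0.607 and 1.03 RPKM, against 1.03 RPKM in sham. It was above sham at 4 hours, level with it at day 10 and below it at day 1 and day 3, with log2 folds of -0.32 and -0.34.

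GABA-A receptors are chloride channels, usually of alpha, beta and gamma or delta subunits. Gabrd, the delta subunit of receptors outside synapses that respond to low ambient GABA, was the most abundant GABA-A gene per length. It had 44.8, 22.2, 25.4 and 30.3 RPKM at 4 hours, day 1, day 3 and day 10, against 36.7 RPKM in sham. The 4-hour library was the only one above sham as deposited, with a log2 fold of 0.28 that turned to -0.12 after scaling, and its ratio was 0.604 (interval 0.566 to 0.645) at day 1 and 0.691 (interval 0.647 to 0.737) at day 3. Gabra4, the alpha subunit that joins delta in striatum, had 2.81, 1.08, 1.48 and 1.65 RPKM at the 4 times, against 1.98 RPKM in sham. It was also lowest at day 1, with a ratio of 0.542 (interval 0.443 to 0.666). Gabra5, another subunit of receptors outside synapses, had 2.50, 1.20, 0.716 and 1.20 RPKM at the 4 times, against 1.29 RPKM in sham. It was well above sham at 4 hours (log2 fold 0.61, ratio 1.94, interval 1.49 to 2.55), was near sham at day 1 and was lowest at day 3 (ratio 0.556, interval 0.379 to 0.807).

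Gabra3, an alpha subunit with a more limited distribution, stayed nearer to sham. It had 1.03, 1.06, 0.772 and 1.10 RPKM at the 4 times, against 0.919 RPKM in sham, and its counting intervals held 1 at all 4 times.

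Gabrb2, a beta subunit, followed another course. It had 0.472, 0.370, 0.484 and 1.01 RPKM at 4 hours, day 1, day 3 and day 10, against 1.20 RPKM in sham, so the first 3 stroke libraries lay close together and far below day 10 and sham. Its ratio to sham was 0.394 (interval 0.294 to 0.525) at 4 hours, 0.309 (interval 0.221 to 0.418) at day 1, 0.404 (interval 0.299 to 0.541) at day 3 and 0.840 (interval 0.673 to 1.05) at day 10. These ratios rest on 138, 109, 130 and 307 reads at the 4 times, against 342 reads in sham, and with the pseudocount the log2 fold of -0.58 at 4 hours was just short of the 1.5-fold size. Gabrb2 lies on chromosome 11 (42419757 to 42629028, plus strand).

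GABA-B receptors need both subunits, GABBR1 to bind GABA and GABBR2 to reach the surface and signal. Gabbr1 was the most abundant of all 39 genes per length, with 71.3, 30.9, 32.2 and 38.3 RPKM at 4 hours, day 1, day 3 and day 10, against 43.6 RPKM in sham. It had the highest log2 fold at 4 hours, 0.70 (ratio 1.63, interval 1.59 to 1.68), and was below sham at the 3 later times, with a ratio of 0.707 (interval 0.683 to 0.732) at day 1. Gabbr2 had 3.37, 1.92, 1.46 and 2.17 RPKM at the 4 times, against 2.65 RPKM in sham. It was lowest at day 3, with a ratio of 0.551 (interval 0.463 to 0.653).

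Below 1 RPKM in every library were 12 members, among them Gria4, Grik1, Grik2, Grin3a, Grm2, Grm8, Gabra2, Gabrb1, Gabrg1, Gabrg3 and Gabrr2. The levels of the 12 ranged between 0.0153 and 0.823 RPKM. Grm2 was the highest of them in sham (0.814 RPKM), with 0.823, 0.543, 0.469 and 0.506 RPKM at 4 hours, day 1, day 3 and day 10. Grik2 had 0.583, 0.272, 0.472 and 0.478 RPKM at the 4 times, against 0.630 RPKM in sham.

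Shares of subunits within a receptor family do not depend on how libraries are scaled, and they show which subunits moved apart. Among the 4 GRIN2 genes, Grin2c made up 58.6%, 42.4%, 57.4% and 59.6% of the summed RPKM at 4 hours, day 1, day 3 and day 10, against 57.7% in sham. Grin2b made up 22.7%, 37.0%, 22.0% and 22.4%, against 22.5% in sham. The day 1 library alone differed for both, and its intervals (39.9% to 45.0% for Grin2c, 35.1% to 39.0% for Grin2b) did not overlap those of any other library. The difference of -15.3 percentage points for Grin2c at day 1 was the largest from sham of any share in any family.

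In the AMPA family, Gria1 made up 78.7%, 69.4%, 67.5% and 68.3% at the 4 times, against 72.6% in sham, and Gria2 12.5%, 17.5%, 19.6% and 18.2%, against 14.4% in sham. Gria1 was thus 3.97 and 3.45 times as abundant per length as Gria2 at day 1 and day 3, against 5.03 times in sham, with intervals of 3.55 to 4.42, 3.09 to 3.85 and 4.59 to 5.50. The interval of the Gria1 share at day 1 (67.2% to 71.5%) overlapped that of sham (70.9% to 74.2%). Those at day 3 (65.2% to 69.7%) and day 10 (66.5% to 70.1%) did not.

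**Figure D4:**
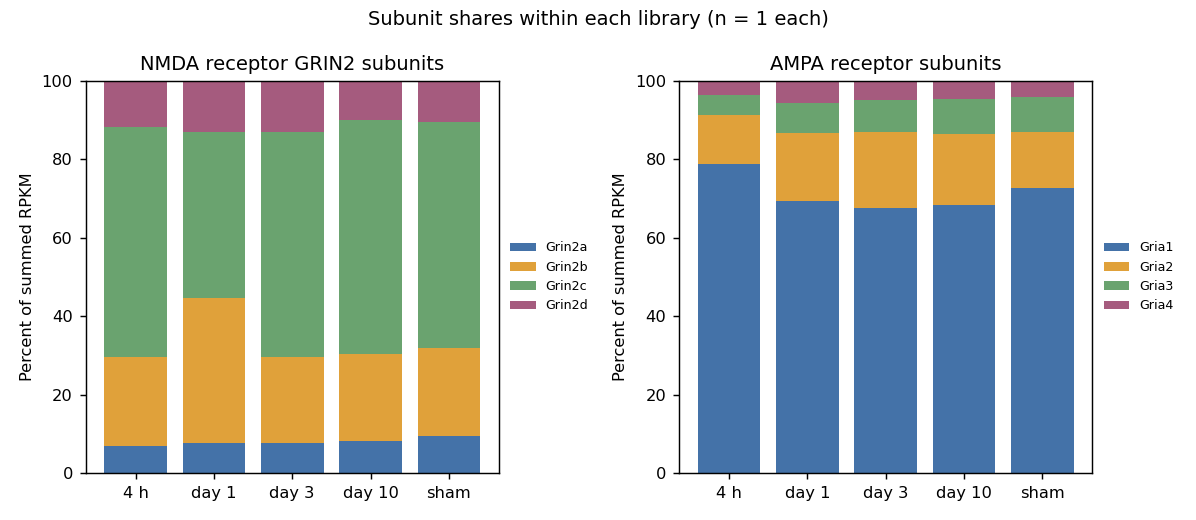
Share of each subunit gene in the summed RPKM of its family (percent, stacked to 100) at 4 hours, day 1, day 3, day 10 and in sham, for the GRIN2 and AMPA genes. Grin2c makes up less and Grin2b more of the GRIN2 sum at day 1 than in the other libraries. Gria1 makes up less of the AMPA sum at day 1, day 3 and day 10 than in sham, with a counting interval at day 1 that overlaps that of sham.

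Between stroke libraries, the receptor genes were lower at day 1 than at 4 hours by a median of -0.58 on the log2 scale (-0.31 over all genes), with 13 of 27 at least 1.5-fold lower (25.8% of all genes) and 0 higher (7.41%). With median-of-ratios scaling this median was -0.25. Day 3 over day 1 had a median of 0.07 (0.13 over all genes), which turned to -0.07 with that scaling, and 0 of 27 were at least 1.5-fold lower (4.13% of all genes). Day 10 over day 3 had a median of 0.25, against -0.01 over all genes, and 23 of 27 genes (85.2%) were higher at day 10, against 48.5% of all genes, though 0 of 27 reached 1.5-fold higher (3.84% of all genes) or lower (9.72%).

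Lists of genes that work beside these receptors were mixed. At least 1.5-fold lower were, over all genes, 8.48% at day 1 and 5.26% at day 3. Of 17 excitatory scaffold genes, 7 at day 1 and 8 at day 3 were at least 1.5-fold lower, and the list's median log2 fold was -0.56 and -0.57. The lowest at day 3 were Shank2 (-0.94), Shank3 (-0.83) and Camk2b (-0.79), 2 scaffolds of the postsynaptic density and a kinase subunit, and the highest were Homer3 (0.89), Pick1 (-0.01) and Dlg1 (-0.09). Of 17 auxiliary genes of AMPA and kainate receptors, 4 at day 1 and 3 at day 3 were lower by that size, with medians of -0.29 and -0.37. Gsg1l (-0.91), Cacng4 (-0.82) and Nptx1 (-0.65) were lowest at day 3, and Cacng5 (0.27), Nptx2 (0.17) and Cnih3 (-0.05) highest.

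Of 14 genes of inhibitory scaffolds and of GABA-A and GABA-B auxiliary proteins, 5 at day 1 and 4 at day 3 were at least 1.5-fold lower. At each time 1 was as much higher. The list's median log2 fold was -0.43 and -0.32, but its summed level was above sham, at 450 and 507 RPKM, against 416 RPKM in sham. Lhfpl4 (-0.95) and Shisa7 (-0.67), both partners of synaptic GABA-A receptors, were among the lowest at day 3, and Gabarap (1.08), Gabarapl2 (0.55) and Clptm1 (0.32), the first 2 of which also act in autophagy, were highest. Of 14 genes that make or move the transmitters, 6 at day 1 and 7 at day 3 were lower by that size. At day 3 the lowest were Abat (-0.99), which breaks GABA down, Slc1a2 (-0.98), the main astrocytic glutamate transporter, and Gad1 (-0.94), which makes GABA, and the highest were Slc17a7 (-0.06), Slc38a2 (-0.15) and Gad2 (-0.18). Slc12a5, the neuronal chloride exporter that sets the direction of GABA-A currents, was at -0.77 and the importer Slc12a2 at -0.00. Glrb, the beta subunit of glycine receptors and the only one of 5 glycine receptor genes analysed, was at -0.38 and -0.36 at day 1 and day 3.

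**Figure D5:**
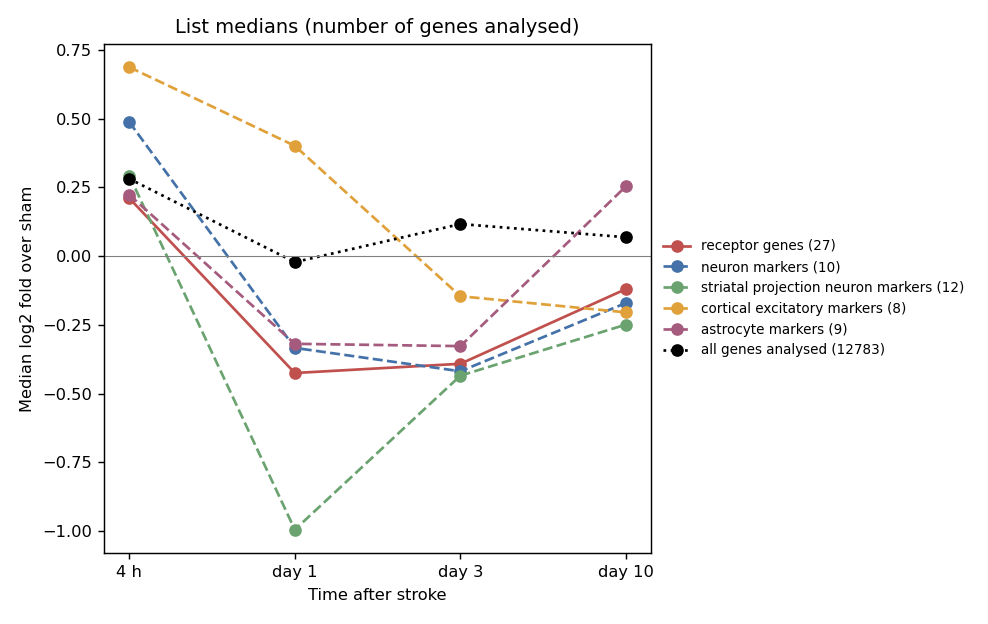
Median log2 fold against sham (vertical axis) of the receptor genes, of 4 cell type marker lists and of all 12783 genes analysed (dotted) at 4 hours, day 1, day 3 and day 10, with the number of genes in the legend. The receptor genes (-0.43 and -0.39) lie near the neuron markers (-0.33 and -0.42) at day 1 and day 3, and the striatal projection neuron markers are lower at day 1 (-1.0).

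Levels between members also followed base composition, which bears on any order of abundance. Over the 27 genes Spearman's rho between GC content of the longest transcript and the sham level was 0.49, against 0.31 over 10089 protein coding genes. The 10 genes with at least 50% GC had a median of 7.83 RPKM in sham and the 17 others one of 1.68 RPKM. That between GC content and the log2 fold was -0.35 at day 1 and -0.45 at day 3 over the 27 genes, and -0.14 and 0.12 over all protein coding genes. These points share the same libraries, and the part of base composition in the levels was not tested.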

How the data were processed

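Per the labels, 5 total RNA libraries were made, 1 per group. HISAT2 2.1.0, StringTie 1.3.4d, Trimmomatic 0.36 and the build GRCm38 appear in the submitters' processing notes, without roles or order. The authors deposited 1 table of 19221 genes with an RPKM per gene and library, and, per pair of libraries, a log2 fold and a GFOLD score at the setting 0.01, a log2 fold shrunk towards 0, per the file headers. The p-value and false discovery rate columns the authors deposited come from a test that is not stated and were not used. Strandedness of counting and the annotation are not given in the sources used here.

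Identifiers were matched to GENCODE mouse release 21 (19158 of 19221 genes). Log2 folds were log2((stroke RPKM + 1)/(sham RPKM + 1)), which understates differences of low genes, over genes that reached 1 RPKM in 1 library or more. Differences were called at 1.5-fold, with no test. Reads were recovered as RPKM times exon length times library total, and 90.4% to 90.5% of values below 5000 reads were whole within 0.02 of a read. Intervals of ratios and shares used reads divided by 2, since mates appeared to be counted singly. They cover counting error only, since PCR copies are not independent molecules, and are given for the 25 analysed receptor genes with whole reads. Because RPKM is relative to the library total, an abundant transcript moves all others. Median-of-ratios and trimmed-mean scaling, a 2-fold limit, a floor of 5 RPKM or none, and pseudocounts of 0.1 and 0.5 were tried, as was dropping members under the floor from shares. Comparisons with genes of like GC content or exon length (20 bins each) and with the neuron marker median were added after seeing the data. The scripts were tested on simulated data.

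The receptor genes, partner lists and cell type marker lists were chosen with earlier results of these data known. Values in every library are given by rule for the 2 members of highest mean in each class, the 4 highest and lowest by log2 fold at each time, members at least 2-fold from sham, and members whose family share differed from sham by at least 5 percentage points. The rest were added for completeness. Some genes these rules pick, and shares of the families that hold them, are not reported here. Of partner lists, the 3 highest and 3 lowest genes are named at the time the list's median was farthest from that of all genes. Python 3.11.15, pandas 2.3.3, numpy 2.4.6, scipy 1.17.1 and matplotlib 3.10.9 were used.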

Additional observations from a re-analysis of the deposited data

Results flagged for a closer look

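For Gabbr1, Gabra5 and Grin2b the counting interval of the RPKM ratio lay above 1 at one time and below 1 at another, both as deposited and after median-of-ratios scaling. The difference between times was not tested, since each time is 1 library. Gabbr1 had a log2 fold of 0.70 at 4 hours and -0.49 at day 1. Gabra5 had one of 0.61 at 4 hours and -0.41 at day 3. Grin2b had one of 0.10 at day 1 and -0.34 at day 3, on either side of sham within the period when most receptor genes were low.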

How the results depend on the processing

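The 4-hour values depended on scaling. The members' median log2 fold at 4 hours, 0.211 as deposited, was -0.113 with median-of-ratios scaling, -0.099 with trimmed-mean scaling, -0.048 relative to genes of like GC content, -0.090 relative to genes of like exon length and -0.277 relative to the neuron markers. The 2 genes at least 1.5-fold higher at 4 hours became 0 under each of these 5 and with the 2-fold limit. The number was 4 with either smaller pseudocount and 1 with the 5 RPKM floor. Of all genes, 18.5% were as much higher as deposited, and 3.17% and 3.43% with the 2 scalings. With pseudocounts 0.1 and 0.5 the shares were 31.0% and 24.1%, and past the 5 RPKM floor 25.6%. At the 2-fold limit 281 of 12783 genes were higher. Relative to like GC content, exon length and the neuron markers, 3.73%, 3.58% and 1.53% were at least 1.5-fold higher. The 0 genes as much lower became 1 with either scaling or smaller pseudocount, 2 relative to genes of like GC content or exon length, and 4 relative to the neuron markers. Over all genes, 3.04% were as much lower as deposited, 7.26% and 6.98% with the 2 scalings, and 6.07% and 4.31% with pseudocounts 0.1 and 0.5. The share was 7.65% and 4.06% relative to like GC content and exon length, and 15.4% relative to the neuron markers. At day 1 the median of -0.425 was -0.740 over the 8 genes past 5 RPKM, -0.282 with no filter, -0.221 relative to genes of like exon length and -0.091 relative to the neuron markers. The 10 lower genes were 1 with the 2-fold limit, 6 relative to genes of like exon length, and 1, Grm3, relative to the neuron markers. Of all genes, 8.48% were as much lower as deposited, and 1.35%, 5.81% and 1.93% were lower in these settings. At day 3 the 6 lower genes were 10 and 11 with the 2 scalings, 13 with pseudocount 0.1, and 0 with the 2-fold limit or relative to the neuron markers. The shares of all genes moved too, being 5.26% as deposited and 8.48%, 8.68%, 11.2%, 0.618% and 0.602% in these settings. Relative to the neuron markers the medians at day 3 and day 10, -0.392 and -0.120, turned to 0.027 and 0.051. The median of day 1 over 4 hours, -0.581, was -0.246 with median-of-ratios scaling, and that of day 3 over day 1, 0.066, was -0.069. The causes were not tested. Of 108 single log2 folds, 27 moved beyond their counting error with median-of-ratios scaling and 81 relative to the neuron markers, and none past the 1.5-fold size changed sign. Dropping genes under the floor moved 52 of 145 shares. No paired analysis was possible because each group is 1 library. That also leaves biological spread unmeasured, and counting error is widest for genes near 1 RPKM such as Gabrb2, Gabra5 and Grik4.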

Other observations

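Marker lists of other cells moved on their own courses beside the receptor genes. The median log2 fold of the 8 cortical excitatory markers analysed was 0.69, 0.40, -0.15 and -0.20 at 4 hours, day 1, day 3 and day 10, and that of the 9 striatal interneuron markers was 0.36, -0.11, -0.10 and -0.24. Of the 12 striatal projection neuron markers, 9 were at least 1.5-fold lower at day 1 and 5 at day 3. The 8 microglia and macrophage markers analysed had medians of -0.08, -0.36, 1.58 and 1.77. The 7 oligodendrocyte markers had medians of 0.84, 0.36, -0.13 and 0.09, the 4 oligodendrocyte precursor markers 0.76, -0.48, 0.47 and 0.34, and the 2 endothelial markers -0.26, -0.13, 0.67 and 0.33. The 5 ependymal and choroid plexus markers had medians of 1.45, 0.33, -0.46 and -0.31. The part of these cells in the receptor values was not tested.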
